A study of Arabidopsis thaliana with 15 samples.

Results

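The UV-B photoreceptor UVR8 and the transcription factor HY5 act in 1 signalling route, and 63 probe sets measured in Arabidopsis thaliana leaves combined a rise under UV-B, loss of that rise in uvr8-1 and a lower level in hy5-1. They were chosen by group means of log2 values from a table of 22746 probe sets. The criteria were a wildtype level at least 1 log2 unit (2-fold) higher under UV-B than in white light, a uvr8-1 response of at most 0.4 times the wildtype response, and a hy5-1 level at least 1 unit below wildtype under UV-B. These criteria were met by 76 probe sets. Of these, 13 were set aside by name, among them flavonoid genes, UDP-glycosyltransferases and a glutathione transferase. The wildtype criterion alone was met by 1656 probe sets. A further 107 met the wildtype and uvr8-1 criteria but not the one for hy5-1.

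Affymetrix ATH1 arrays of 1 colour were hybridised with leaf RNA of Landsberg erecta plants, 15 arrays in 5 groups of 3. Plants on compost were 3 weeks old, kept at 21 °C, and lit without a dark period by white light (25 µmol m-2 s-1). The groups were wildtype without further treatment, wildtype after 4 h of UV-B at 3 µmol m-2 s-1, the uvr8-1 mutant without treatment, uvr8-1 after the same UV-B, and the hy5-1 mutant after the same UV-B. The labels call the arrays biological replicates and name the mutants by allele only. No hy5-1 plants in white light were analysed here, so a low hy5-1 level under UV-B may also be a low level before it. Neither UVR8 nor HY5 has a probe set that the annotation pairs with it alone, so the transcript of the mutated gene could not be used to check the genotypes.

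UVR8 absorbs UV-B as a dimer, separates into monomers and binds the ubiquitin ligase COP1. Without UV-B, COP1 leads HY5 to degradation, and after UV-B the HY5 protein accumulates and its gene is induced. HY5, a bZIP protein, and its homologue HYH bind ACGT-containing promoter elements and are required for much of the UVR8 response, which in leaves includes sunscreen flavonoids, light-stress proteins and DNA photolyases. The hy5-1 arrays address which level a gene has under UV-B when HY5 alone is missing. Without hy5-1 arrays in white light they do not give its response.

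Of the 63 members, 27 were paired with a single gene, 3 with several genes and 33 with none. Members without a single gene are called by their probe set, and no role is given for them. Single-gene annotation covered 42.9% of the members and 59.4% of all probe sets. The 27 genes are spread over the 5 chromosomes (11, 6, 2, 2 and 6 on chromosomes 1 to 5). A single pair lies close together, AT2G41000 and AT2G41040, with 2 genes between them.

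Array medians lay between 4.31 and 4.40 and all values between 1.99 and 13.07 log2 units. The number of arrays limits the precision. Of 15 leaf mesophyll markers, LHCB4.2, ATPC1 and RCA had a probe set of their own. The mean of their log2 values on an array was 11.54 to 11.75 in wildtype in white light and 10.46 to 10.90 under UV-B. It was 10.66 to 11.02 in uvr8-1 under UV-B and 10.69 to 10.87 in hy5-1. Their wildtype responses to UV-B were −2.34 for LHCB4.2, −0.59 for ATPC1 and −0.07 for RCA. The root marker PYK10 (1 of 8 root markers measured) read 7.53 to 7.70 in wildtype under UV-B, 7.2 to 7.80 in uvr8-1 and 6.58 to 7.42 in hy5-1. The guard cell marker FMA (1 of 8) read 5.57 to 5.92, 5.23 to 5.64 and 5.13 to 5.17, and was lower in hy5-1 than in wildtype (−0.55 ± 0.15, adjusted p = 0.0475 in limma). Markers of vascular tissue, flowers and seeds were not measured by single-gene probe sets. The part of these markers in the hy5-1 results was not tested. The 3' minus 5' index, the mean over the GAPDH, actin and ubiquitin control probe sets of how far the 3' signal exceeds the 5' signal, averaged 2.78 ± 0.32 for hy5-1 (SD, n = 3), against 1.88 ± 0.10 for the UV-B wildtype and 1.93 ± 0.02 for the UV-B uvr8-1 arrays. The index of all 3 hy5-1 arrays was above that of all arrays of these groups. The exact permutation p was 0.1 for each group (2-sided), the smallest that 3 arrays against 3 allow. GAPDH (means 2.65 in hy5-1, 0.97 in UV-B wildtype and 0.91 in UV-B uvr8-1) and ubiquitin also gave no overlap. Actin overlapped with both groups, at 3.58 to 4.03 in hy5-1, 3.06 to 3.77 in wildtype and 3.5 to 3.92 in uvr8-1. A fit with the index as a covariate is given with the hy5-1 results.

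The mean over the 63 members was 5.08, 5.18 and 5.07 on the 3 wildtype arrays in white light and 6.94, 7.59 and 6.86 on those under UV-B. It was 5.10, 5.18 and 5.04 in uvr8-1 in white light and 4.90, 5.0 and 4.89 in uvr8-1 under UV-B. In hy5-1 under UV-B it was 5.66, 5.43 and 5.62. Wildtype UV-B replicate 2 stood apart: it held the highest of the 3 wildtype UV-B values for 51 of the 63 members (81.0%), against 30.2% of all probe sets. Without it the criteria were met by 44 probe sets, all of them among the 63, and the tested contrasts are also given for these 44. Single-gene members lost without it were AT2G16365, UF3GT, AT5G50100, AT1G79510, AT2G43780, AT1G13670, AT3G62190, AT4G29590 and AT1G06550. Other members lost were 251020_at, 255594_at, 247779_at, 263823_s_at, 254459_at, 264186_at, 250558_at, 257746_at, 245126_at and 248596_at. The median SD of a member was 0.47 in wildtype under UV-B and 0.17 to 0.23 in the other groups.

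**Figure D1:**
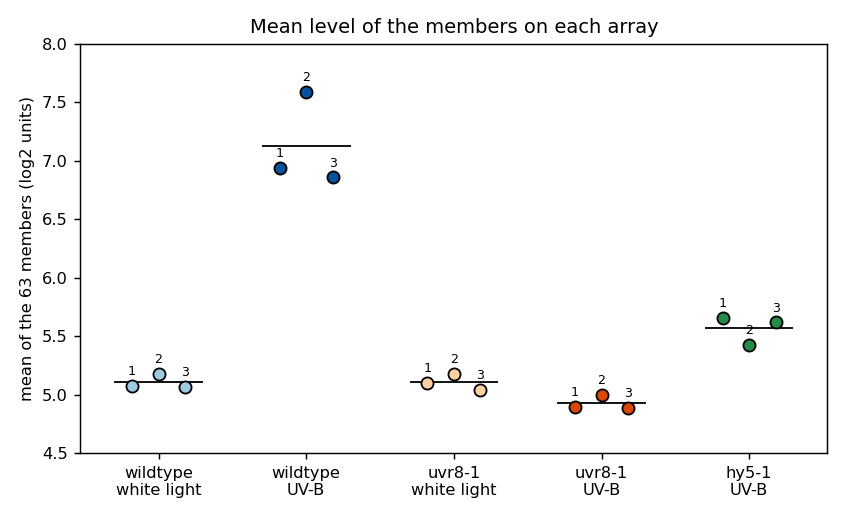
The vertical axis is the mean log2 value of the 63 members on an array, the points are the 3 arrays of each group with their replicate numbers, and the lines are group means. The wildtype UV-B arrays (6.86 to 7.59) are highest, the hy5-1 arrays (5.43 to 5.66) lie between them and the uvr8-1 UV-B arrays (4.89 to 5.0), and replicate 2 is the highest wildtype UV-B array. The criteria fixed this order in part.

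In wildtype the members were higher under UV-B by 1.04 to 4.49 log2 units, with a median of 1.93, and 28 of 63 were higher by at least 2 units. The median response of all probe sets was −0.0398. These differences chose the members and are given as a description. The UV-B and white light arrays of wildtype did not overlap for 62 of the 63, against 16.2% of all probe sets. AT1G13670 was the exception, at 3.55, 5.80 and 4.89 under UV-B and 3.29, 4.06 and 3.07 in white light. A lower level in leaf RNA can come from fewer cells of a type or from less RNA per cell, and the arrays cannot tell these apart. In uvr8-1 the response ran from −1.50 to 0.669 with a median of −0.143. It was below 0 for 40 members, at or below −0.5 for 14 and at least 0.5 for 8. The median hy5-1 level was 1.41 below wildtype under UV-B, and 9 members were lower by 2 units or more.

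The strongest wildtype responses were those of probe sets without a single gene. The probe set 249063_at read 5.98, 5.57 and 5.62 in wildtype in white light, 9.83, 10.76 and 10.04 in wildtype under UV-B, 5.98, 5.52 and 5.28 in uvr8-1 in white light, 5.40, 5.57 and 5.22 in uvr8-1 under UV-B, and 8.80, 8.82 and 8.47 in hy5-1. Its wildtype response was 4.49 ± 0.23 (SE from limma, as for the other differences). For 251020_at the values in the same order were 5.88, 5.56 and 5.37, then 9.45, 10.49 and 9.76, then 5.67, 5.32 and 4.76, then 5.74, 5.70 and 5.28, and 9.01, 8.46 and 8.35 in hy5-1. In both, hy5-1 lay below every wildtype UV-B array and far above every uvr8-1 array, and stood closer to wildtype than to uvr8-1. Without wildtype UV-B replicate 2, 251020_at was not selected. By contrast, 246966_at read 3.52, 3.80 and 4.01 in wildtype in white light, 7.46, 7.63 and 7.09 under UV-B, and 3.96, 4.03 and 4.35 in hy5-1. In uvr8-1 it read 3.74, 3.83 and 3.57 in white light and 3.19, 3.82 and 3.34 under UV-B. Here the hy5-1 arrays lay close to the white light level, 3.28 ± 0.19 below wildtype under UV-B. Between these cases, 248049_at went from 3.75, 3.70 and 3.69 to 7.79, 7.53 and 7.12 in wildtype, and from 3.90, 3.74 and 3.70 to 4.60, 4.29 and 4.02 in uvr8-1. It stood at 5.80, 5.57 and 5.44 in hy5-1, between the wildtype and uvr8-1 arrays with no overlap.

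The largest wildtype response and the largest hy5-1 shortfall of a named gene were those of AT5G62210, which encodes a protein of the embryo-specific protein 3 family. It read 4.01, 4.73 and 3.96 in wildtype in white light and 7.17, 8.63 and 7.64 under UV-B, a response of 3.58 ± 0.30. The uvr8-1 values were 4.51, 4.40 and 4.14 in white light and 3.51, 3.46 and 3.71 under UV-B, and hy5-1 read 3.58, 4.0 and 3.94. The mutants overlapped each other under UV-B, and hy5-1 was 3.97 ± 0.30 below wildtype.

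Among genes of pigment synthesis, UF3GT encodes a glycosyltransferase that decorates anthocyanins. Without wildtype UV-B replicate 2 it was not selected. It read 4.53, 4.45 and 3.81 in wildtype in white light, 5.48, 6.86 and 5.94 under UV-B and 4.91, 4.69 and 5.40 in hy5-1, and its uvr8-1 means were 4.28 ± 0.23 and 4.24 ± 0.29 (SD, n = 3). The probe set 265091_s_at is shared by AT1G03495 and AT1G03940, which encode anthocyanin acyltransferases, and cannot tell them apart. It read 5.67, 6.83 and 5.43 in wildtype under UV-B and 4.84, 3.70 and 4.55 in hy5-1, with a white light mean of 3.58 ± 0.23. The probe set 253879_s_at, shared by the glycosyltransferase genes AT4G27570 and AT4G27560, had means of 5.49, 7.90, 5.57, 5.23 and 5.59 in the wildtype groups (white light, then UV-B), the uvr8-1 groups in the same order and hy5-1. Its hy5-1 arrays (5.69, 5.36 and 5.71) overlapped the uvr8-1 UV-B arrays (5.37, 5.38 and 4.94).

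A gene of light signalling, AT2G16365, encodes PCH1, a protein that stabilises the active form of phytochrome B. It read 5.71, 6.25 and 5.61 in wildtype in white light, 7.28, 8.27 and 8.11 under UV-B, 5.28, 5.96 and 5.88 in uvr8-1 in white light, 5.37, 6.29 and 6.05 in uvr8-1 under UV-B and 6.62, 6.99 and 6.99 in hy5-1. Its hy5-1 arrays lay between the other UV-B groups without overlap, and its difference from wildtype, −1.02 ± 0.30, is close to the limit of the criterion. It is 1 of the 19 members not selected without wildtype UV-B replicate 2. The probe set 263823_s_at, shared by DREB2C, a factor of stress responses, and its relative AT2G40350, was dim, with 2.91, 2.70 and 2.58 in wildtype in white light and 4.22, 4.70 and 4.70 under UV-B.

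Chloroplast proteins were represented by SPPA, a light-induced protease of the thylakoid membrane. It read 6.73, 6.49 and 6.81 in wildtype in white light, 8.75, 9.06 and 8.37 under UV-B, 6.93, 6.71 and 6.78 in uvr8-1 in white light, 6.31, 6.17 and 6.18 in uvr8-1 under UV-B and 7.45, 7.08 and 7.25 in hy5-1. In uvr8-1 it was lower under UV-B than in white light, and the hy5-1 arrays were above all white light arrays. AT2G41040, a methyltransferase found in plastoglobules, read 5.80, 5.55 and 5.62 in wildtype in white light and 8.53, 8.04 and 6.92 under UV-B. It read 5.78, 5.77 and 5.53 in uvr8-1 in white light, 5.85, 5.65 and 5.38 in uvr8-1 under UV-B, and 6.85, 6.34 and 6.63 in hy5-1. Its lowest wildtype UV-B array was barely above its highest hy5-1 array.

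Mitochondrial proteins included SDH1-1, the flavoprotein subunit of succinate dehydrogenase. It read 7.0, 7.42 and 7.23 in wildtype in white light and 9.41, 9.36 and 9.34 under UV-B, the tightest wildtype UV-B group of the 63 (SD 0.04). In uvr8-1 it read 7.28, 7.40 and 6.92 in white light and 7.93, 7.67 and 7.51 under UV-B, and in hy5-1 7.83, 7.35 and 7.51. The mutants overlapped under UV-B and both were far below wildtype. AT2G25530, an AFG1-like ATPase, read 4.36, 4.02 and 4.16 in wildtype in white light, 6.25, 6.59 and 6.41 under UV-B, 4.49, 3.93 and 4.34 in uvr8-1 in white light, 3.95, 3.74 and 3.84 in uvr8-1 under UV-B and 5.12, 4.43 and 5.0 in hy5-1. AT1G19140, a protein of the ubiquinone synthesis family COQ9, went from a mean of 5.17 ± 0.09 to 7.04 ± 0.36 in wildtype and stood at 5.54 ± 0.13 in hy5-1.

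Several members encode oxidoreductases. LPR1, a multicopper oxidase known for sensing low phosphate in roots, read 3.36, 3.17 and 3.08 in wildtype in white light, 5.86, 6.51 and 5.07 under UV-B, 3.33, 3.11 and 3.43 in uvr8-1 in white light, 3.42, 3.32 and 3.17 in uvr8-1 under UV-B and 4.19, 4.12 and 3.52 in hy5-1. The white light values lay under the 40th percentile of 3.74, so the size of its response depends on values near background. AT2G23910, a protein with an NAD(P)-binding fold, read 3.22, 4.27 and 3.25 in wildtype in white light, 4.82, 6.86 and 5.61 under UV-B and 3.21, 3.43 and 3.70 in hy5-1. Its uvr8-1 values were 3.20, 4.09 and 3.85 in white light and 3.63, 4.09 and 3.65 under UV-B. Both mutants thus overlapped the wildtype white light range, and the wildtype UV-B arrays were spread widely (SD 1.03). AT1G57770, an FAD-dependent oxidoreductase, read 4.18, 4.01 and 4.64 in wildtype in white light, 5.98, 6.74 and 5.89 under UV-B and 4.53, 4.34 and 4.34 in hy5-1. It read 4.3, 4.28 and 4.27 in uvr8-1 in white light and 3.77, 3.87 and 4.19 under UV-B. Wildtype responses of AT3G15090 and AT1G65560, both zinc-binding dehydrogenases, were 1.78 ± 0.20 and 1.54 ± 0.17. That of AT5G10730, with an NAD(P)-binding fold, was 1.64 ± 0.15, and that of AT5G50100, a thiol-disulphide oxidoreductase of the DCC family, was 1.60 ± 0.23.

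Genes of protein turnover and folding were AT1G18660, AT2G41000 and AT3G62190. AT1G18660, a RING-type zinc finger protein, read 7.0, 7.0 and 7.10 in wildtype in white light, 9.02, 9.30 and 8.94 under UV-B, 6.81, 7.0 and 6.91 in uvr8-1 in white light, 6.06, 6.52 and 6.39 in uvr8-1 under UV-B and 7.70, 7.67 and 7.73 in hy5-1. Its hy5-1 arrays were nearly identical and sat in the gap between the wildtype UV-B and white light arrays. AT2G41000, a DnaJ-type co-chaperone, read 3.87, 3.61 and 3.52 in wildtype in white light, 5.12, 5.75 and 5.83 under UV-B, 3.83, 3.71 and 3.65 in uvr8-1 in white light, 4.04, 3.76 and 3.75 in uvr8-1 under UV-B and 4.19, 4.17 and 4.13 in hy5-1. AT3G62190, another DnaJ-domain protein, had a wildtype response of 1.25 ± 0.14 and lay at the limit of the hy5-1 criterion (−1.02 ± 0.14).

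Further members belong to no common role. AT4G03020, a WD40 repeat protein, read 6.36, 7.06 and 6.80 in wildtype in white light, 8.71, 9.15 and 8.90 under UV-B, 6.54, 6.89 and 6.78 in uvr8-1 in white light, 7.15, 7.53 and 7.45 in uvr8-1 under UV-B and 7.89, 7.28 and 7.65 in hy5-1. It kept the largest share of its response among named genes in uvr8-1, 29.3%. AT1G48650, a DEAH-type RNA helicase, had a wildtype response of 1.45 ± 0.24, AT4G29590, a methyltransferase, of 1.09 ± 0.16, and AT1G06550, a crotonase-family enzyme, of 1.04 ± 0.21. AT4G29590 and AT1G06550 had uvr8-1 responses of −0.77 ± 0.16 and −0.67 ± 0.21, with that of AT5G62210 (−0.79 ± 0.30) the lowest of the named genes. For AT5G55570, AT1G71850, AT1G79510, AT2G43780 and AT1G13670 no role is given, and their wildtype responses were 1.69, 1.53, 1.35, 1.33 and 1.28.

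**Figure D2:**
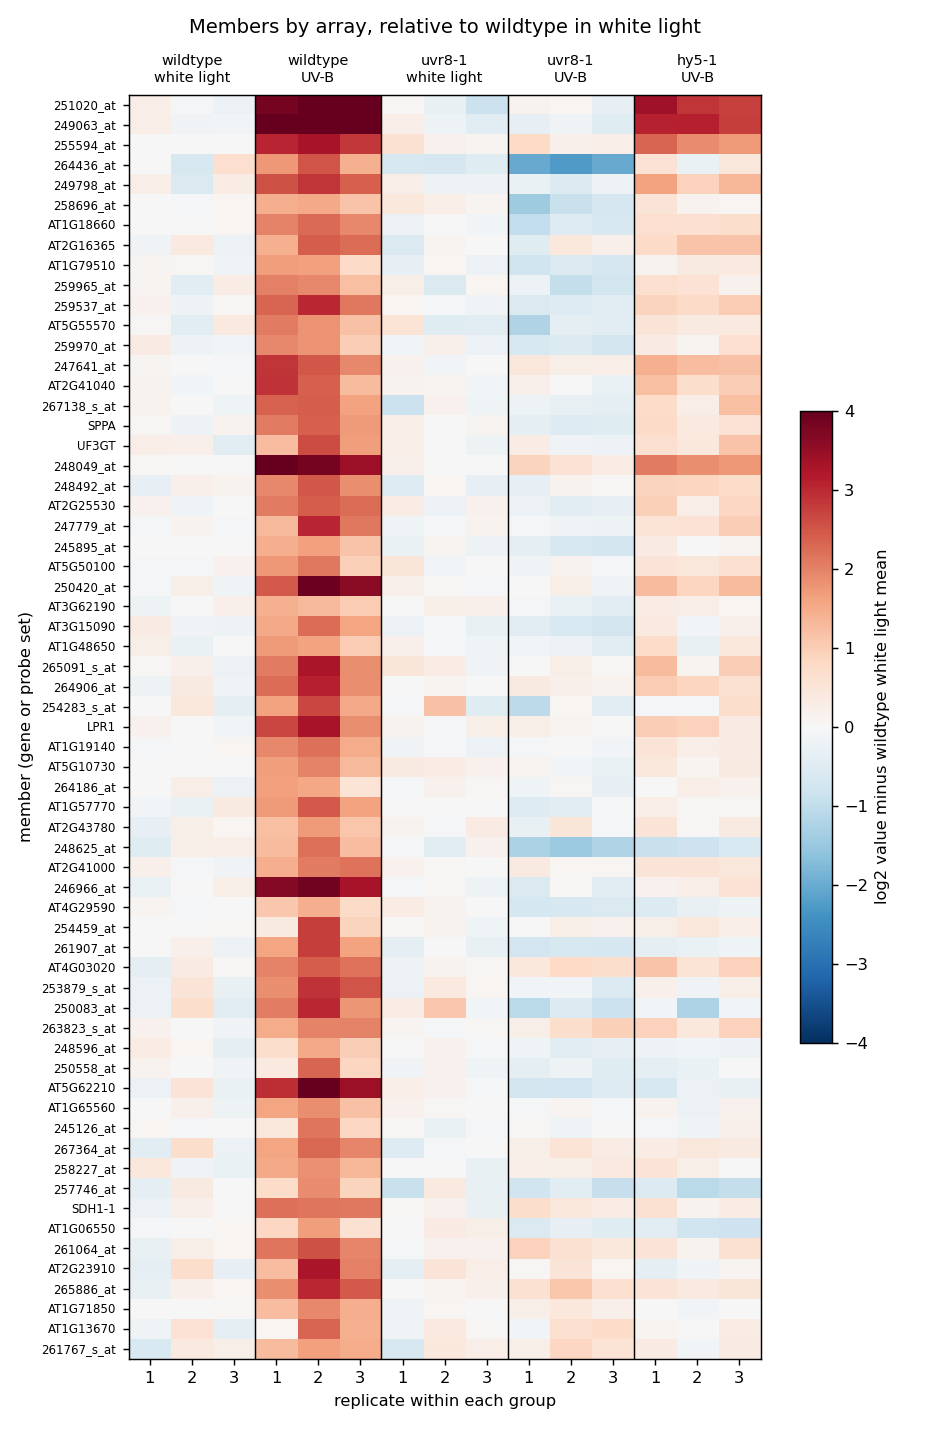
Each row is 1 of the 63 members and each column 1 array. Colour gives the log2 value minus the member's wildtype white light mean, with the scale ending at −4 and 4. Rows are ordered by the position of the hy5-1 mean between uvr8-1 UV-B (bottom) and wildtype UV-B (top), from −39.3% for 261767_s_at to 70.2% for 251020_at. The wildtype UV-B columns are red apart from pale values such as that of AT1G13670 in replicate 1, and the hy5-1 columns fade from top to bottom.

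Values close to the limits show that the criteria also divide probe sets with similar values. The smallest wildtype responses inside were those of AT1G06550 (1.04), 248596_at (1.07) and AT4G29590 (1.09), and just outside were 252983_at, short of 1 only beyond the second decimal, AT5G17010 (0.98) and 253251_at (0.95). The ratio of the uvr8-1 to the wildtype response reached 0.36 in 261767_s_at, 0.33 in 263823_s_at and 0.29 in AT4G03020, and just outside stood PDC2 (0.42), AT2G38465 (0.45) and 254890_at (0.49). The smallest hy5-1 shortfalls inside were those of 254459_at (−1.01), AT2G16365 (−1.02) and AT3G62190 (−1.02), and just outside were AT1G05070 (−0.98), AT5G37550 (−0.97) and AT3G27110 (−0.97). Every wildtype UV-B array was above every hy5-1 array for 61 of the 63, against 13.2% of all probe sets, and the exceptions were 254459_at and AT1G13670. The criterion used this contrast, and the count is a description. In 254459_at, wildtype under UV-B read 3.03, 5.43 and 3.57 against 2.92, 3.14 and 2.94 in hy5-1, so its membership rests on replicate 2.

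Left-out arrays describe how far the choice depended on single arrays. Among the 44 members chosen without wildtype UV-B replicate 2, that array was above the wildtype white light mean by a median of 2.42 and at least 1.52, and the hy5-1 mean was below it for all 44. Chosen without wildtype UV-B replicate 1 there were 78 probe sets. Replicate 1 was at least 1 unit above the white light mean for 57 of them and in the lowest case at −2.09. The hy5-1 mean was below replicate 1 for 73 of 78, by at least 1 unit for 46, and in the highest case 0.75 above it. Of the 85 probe sets chosen without replicate 3, that array was at least 1 unit above the white light mean for 58, and the hy5-1 mean was below it for 84, by at least 1 unit for 44. Leaving out each hy5-1 array in turn gave 66, 60 and 64 probe sets. The array left out was below the wildtype UV-B mean by at least 1 unit for 52, 54 and 50 of them, but that mean had been selected to be high, so these counts are no test. The counts for left-out wildtype arrays are no test either. They use white light and hy5-1 means that had been selected to be low.

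The level left in hy5-1 was compared with uvr8-1 under UV-B, a contrast that no criterion used, although both groups entered the criteria through other contrasts. The uvr8-1 criterion favoured a low uvr8-1 level under UV-B, which was below its white light level for 40 of the 63 members. A higher level in hy5-1 than in uvr8-1 thus includes any fall in uvr8-1. Of the 63 members, 25 (39.7%) were higher in hy5-1 at an adjusted p under 0.05 (limma with Benjamini-Hochberg adjustment over all 22746 probe sets), and none was lower. Over all probe sets 5.37% were called higher and 8.47% lower. The criteria selected on the uvr8-1 and the hy5-1 level under UV-B. Shares over all probe sets thus do not show what selection alone would give, and the counts are no independent support. The median difference was 0.55 over the members and 0.04 over all probe sets, and the members ranged from −0.36 to 3.30, with 53 above 0. At an unadjusted p under 0.05, 34 members were higher and 1 was lower. All hy5-1 arrays were above all uvr8-1 arrays for 37 of the 63 members, against 17.1% of all probe sets. Among the 44 members chosen without wildtype UV-B replicate 2, and in a fit without it, 22 were called higher, 19 of them among the 25. There 1 was called lower, AT1G71850 (−0.33 ± 0.10, adjusted p = 0.0484 by limma). The count of members called higher fell to 16 without uvr8-1 UV-B replicate 3 and to 15 without hy5-1 replicate 1. With the 3' minus 5' index as a covariate limma called 0 of 63, where it called 6 higher and 2 lower over all probe sets, and the median difference of the members was 0.48. The hy5-1 and uvr8-1 UV-B arrays did not overlap in the index, and index and genotype cannot be told apart.

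The largest differences between hy5-1 and uvr8-1 were those of 249063_at (3.30 ± 0.23, adjusted p = 7.09e-06 by limma) and 251020_at (3.04 ± 0.29, 6.9e-05). They were followed by 264436_at (2.35 ± 0.33, 0.000962), which read 7.50, 6.63 and 7.35 in hy5-1 and 4.90, 4.65 and 4.89 in uvr8-1. The uvr8-1 values lie below the uvr8-1 white light mean of 6.31 ± 0.11, so the difference includes a low uvr8-1 level under UV-B. The differences of 249798_at, 255594_at, 259537_at, 248049_at and 258696_at were 1.63 ± 0.24, 1.56 ± 0.19, 1.40 ± 0.18, 1.30 ± 0.17 and 1.24 ± 0.18, with adjusted p from limma between 0.000486 and 0.00136. Among genes with a name, AT1G18660 led with 1.38 ± 0.12 (adjusted p = 4.45e-05 by limma), higher in all 3 hy5-1 arrays than in any uvr8-1 array. SPPA (1.04 ± 0.16) and AT2G25530 (1.01 ± 0.18) followed, again with no overlap. AT1G79510 (0.97 ± 0.21), AT3G15090 (0.76 ± 0.20), AT5G55570 (1.09 ± 0.31) and AT3G62190 (0.49 ± 0.14) were also called. Those of AT2G41040 (0.98 ± 0.30, adjusted p = 0.0459 by limma) and AT5G55570 were lost in each of the 6 fits without a uvr8-1 or hy5-1 UV-B array, and that of AT2G16365 (0.96 ± 0.30, adjusted p = 0.0464 by limma) in 5 of them. AT3G15090 and AT3G62190 were called in 2 of these 6 fits. Of the 25 members, 15 kept the call in all 6 fits.

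No call was made for the other 38 members. SDH1-1 was at −0.14 ± 0.16, AT4G03020 at 0.23 ± 0.20, AT5G62210 at 0.28 ± 0.30, AT2G41000 at 0.32 ± 0.16, AT2G23910 at −0.34 ± 0.43, AT1G65560 at 0.03 ± 0.17 and AT1G06550 at −0.21 ± 0.21. AT1G57770 (0.46 ± 0.21), LPR1 (0.64 ± 0.28) and UF3GT (0.76 ± 0.31) were higher in hy5-1 by more than their standard error and did not pass. With standard errors of 0.16 to 0.43 for these genes, equality with uvr8-1 is not shown.

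**Figure D3:**
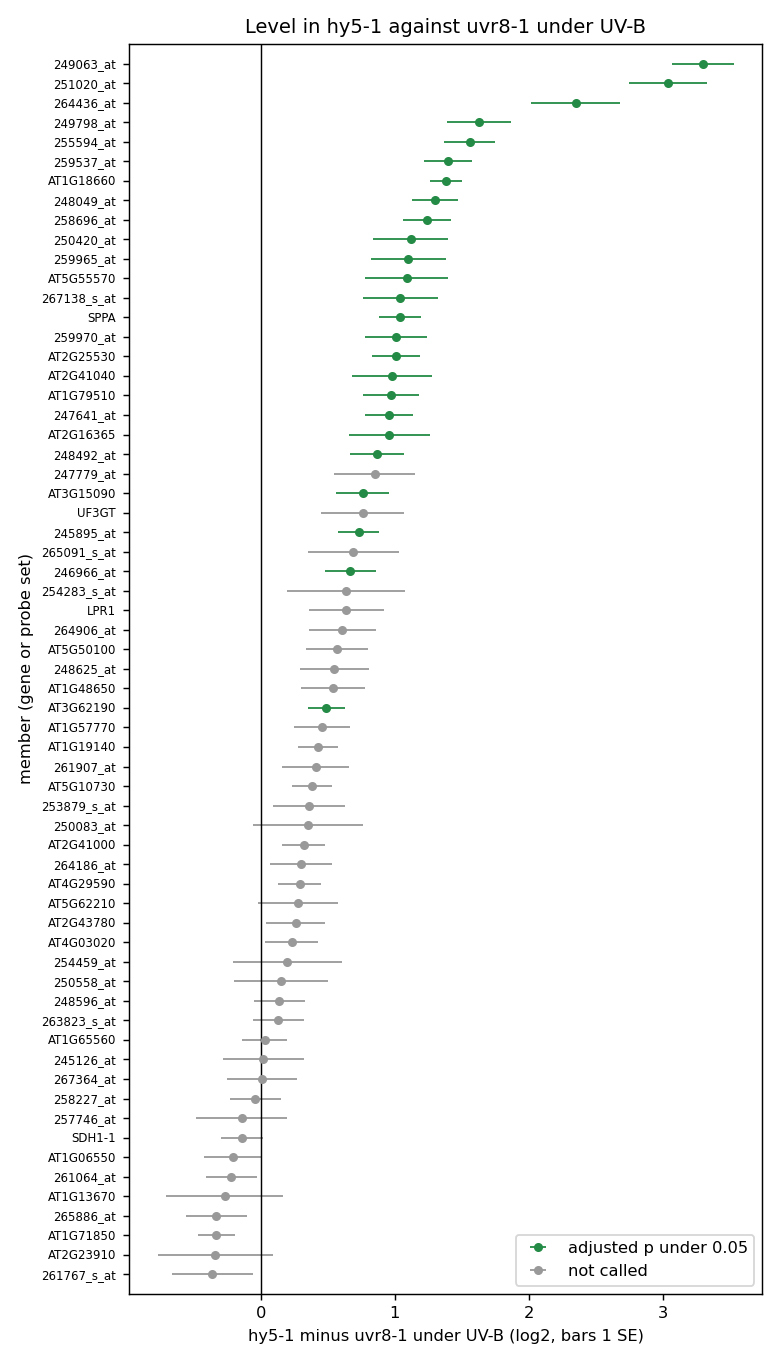
The horizontal axis is the hy5-1 minus uvr8-1 difference under UV-B in log2 units with bars of 1 SE, and each row is a member. Green marks the 25 members with an adjusted p under 0.05, all at or above 0.49, and the other members are grey and run down to −0.36.

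Expressed as the position of the hy5-1 mean on the way from the uvr8-1 to the wildtype mean under UV-B, in percent, the members ran from −39.3% to 70.2% with a median of 25.5%. This measure uses the values that chose the members and is a description. Its lower end is the uvr8-1 level under UV-B, which for 40 members was below that in white light. For 31 members hy5-1 lay in the lowest 25% of the interval, and for 10 of these it was below uvr8-1. For 6 members it was above 50%: 251020_at (70.2%), 249063_at (68.6%), 255594_at and 264436_at (58.9% each), 249798_at (55.2%) and 258696_at (52.6%). The first gene with a name, AT1G18660, stood at 49.8%, SPPA at 41.4% and AT2G25530 at 39.1%, against 6.56% for AT5G62210, −8.5% for SDH1-1 and −17.4% for AT2G23910. Compared with wildtype in white light, hy5-1 under UV-B was higher by a median of 0.345, and 12 members were lower, such as AT1G06550 (−0.69) and AT4G29590 (−0.36).

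**Figure D4:**
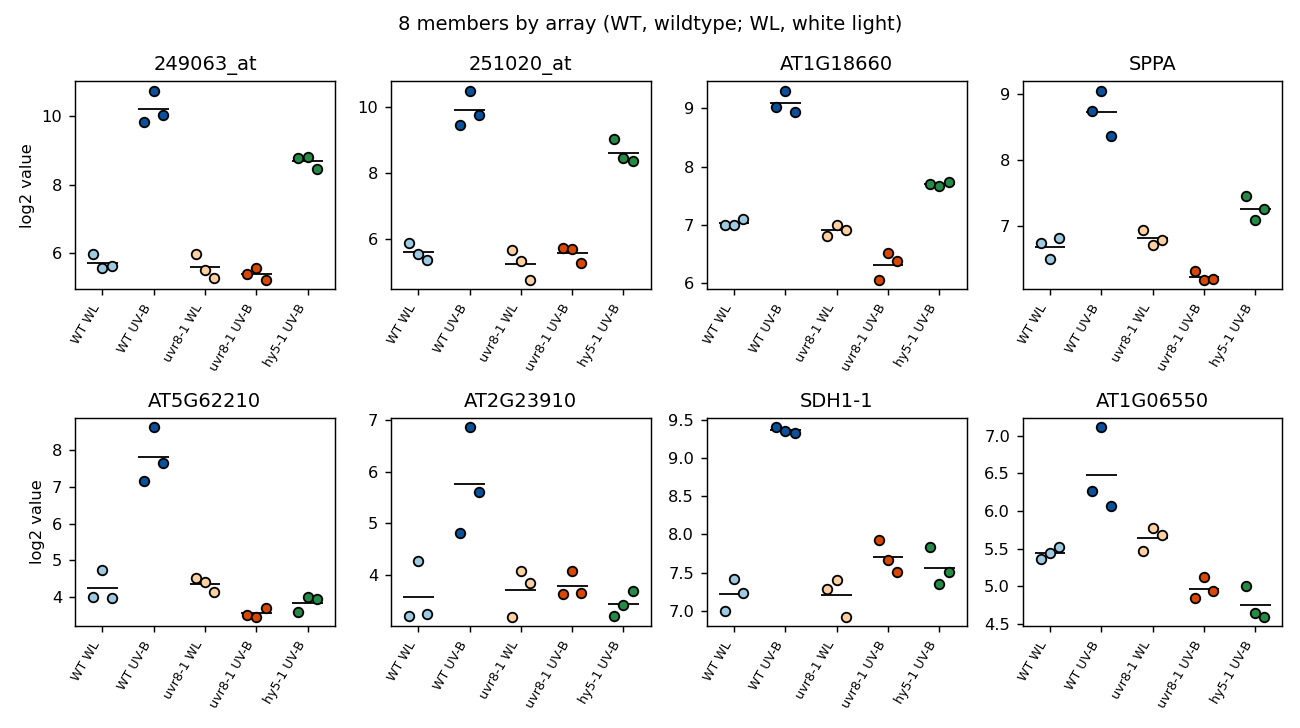
Each panel shows the log2 values of a member on the 15 arrays, 3 points per group with a line at the mean, on axes of their own that do not start at 0. The upper row holds members whose hy5-1 arrays lie above all uvr8-1 UV-B arrays (249063_at, 251020_at, AT1G18660 and SPPA), and the lower row members whose mutant arrays overlap under UV-B (AT5G62210, AT2G23910, SDH1-1 and AT1G06550).

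Before UV-B the genotypes were compared in white light, again a contrast that no criterion used but whose arrays entered them. The criteria favoured a low wildtype and a high uvr8-1 level in white light. Limma called none of the 63 members higher or lower in uvr8-1 than in wildtype, and 0 had an unadjusted p under 0.05. Among the 44 members chosen without wildtype UV-B replicate 2, 0 were called in either direction. The 3' minus 5' index was 2.08 to 2.36 on the uvr8-1 arrays in white light and 1.79 to 1.88 on the wildtype arrays (difference 0.35, exact permutation p = 0.1, the smallest possible). A fit with the index as a covariate also called 0 members. Over all probe sets 0.0132% were called higher and 0.0044% lower. With so few calls over all probe sets, the count of 0 does not distinguish the members. The differences of the members ran from −0.60 to 0.42 with a median of 0.02, and 34 were above 0. The extremes were 264436_at (−0.60, unadjusted p = 0.0887 in limma) and 250083_at (0.42, unadjusted p = 0.325 in limma). White light levels of the members ran from 2.68 to 8.87 in wildtype with a median of 5.13, against 4.36 for all probe sets. For 16 members (25.4%) the wildtype white light mean was under 3.74, and the same held for 40.9% of all probe sets.

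The 13 probe sets set aside by name had wildtype responses of 1.53 to 7.35 (median 2.93), hy5-1 shortfalls of −3.74 to −1.24 and hy5-1 minus uvr8-1 differences up to 5.15. For the 107 probe sets that met the wildtype and uvr8-1 criteria alone, the median wildtype response was 1.44 and the median hy5-1 minus uvr8-1 difference 1.05, against 1.93 and 0.55 for the 63. These groups were separated by the hy5-1 level itself, so their difference was not tested.

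Other genes of the route came from lists chosen by function, with earlier results of these data known. Of 40 genes of UVR8 signalling and light regulation 5 had a single-gene probe set. None of the 5 is a member, but BIC1 (AT3G52740) met all 3 criteria and was set aside by name. Its direction in the contrasts of the criteria was thus fixed. HYH, the homologue of HY5, and the cryptochrome inhibitor genes BIC1 and BIC2 (AT3G44450) rose under UV-B in wildtype. BIM1, which encodes a brassinosteroid response factor, fell, and CUL4, a ubiquitin ligase scaffold, was at −0.25 ± 0.16. Limma called 12.2% of all probe sets higher and 18.3% lower in that contrast. HYH rose by 4.48 ± 0.45 and BIC2 by 2.32 ± 0.46, and their hy5-1 levels were −0.61 ± 0.45 and −0.21 ± 0.46 from wildtype, neither called. BIC1 (−1.41 ± 0.31) and BIM1 (−0.80 ± 0.18) were called lower in hy5-1. These 2 calls became 0 with the index as a covariate, 1 in a fit of the compared groups alone, and 1 without wildtype UV-B replicate 1 or 2, and without hy5-1 replicate 1 or 2. The difference of responses was called for BIC1 alone (−3.42 ± 0.44), and for 2 genes without uvr8-1 white light replicate 2.

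Of 27 genes of UV-B protection 7 had a single-gene probe set, all of pigment or hydroxycinnamate synthesis. Whether probe sets without a single gene represent others of the list was not examined. None of the 7 is a member, but UGT84A1, AT1G06000, CHIL, DFR and AT4G14090 met all 3 criteria and were set aside by name. The direction of these 5 genes in the contrasts of the criteria was thus fixed with that of the members. The counts below include them, so the shares over all probe sets are no standard for these counts. Only UGT78D2 and UGT78D1 were not bound by the criteria. In wildtype 6 rose: UGT84A1, which glucosylates hydroxycinnamates (3.97 ± 0.26), the flavonol glucosyltransferase gene UGT78D2 (2.96 ± 0.23), AT1G06000 (2.79 ± 0.40), CHIL (2.65 ± 0.33), DFR of anthocyanin synthesis (2.27 ± 0.42) and AT4G14090 (1.53 ± 0.33). UGT78D1 was at −0.25 ± 0.29. For 5 of the 7 the response was smaller in uvr8-1 (interaction called lower), with 0.831% of all probe sets called lower and 0.0264% higher. All 7 were called lower in hy5-1 than in wildtype under UV-B, where 4.81% of all probe sets were lower and 2.77% higher, from −0.91 ± 0.23 for UGT78D2 to −2.71 ± 0.33 for CHIL. That count was 3 without hy5-1 replicate 2, 4 in a fit of the compared groups alone and 0 with the index as a covariate. UGT78D2 did not meet the hy5-1 criterion, and UGT78D1 did not meet the wildtype criterion.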

How the data were processed

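The deposited values are log2 units per probe set, made by the authors with RMA per the submitters' processing notes; its version and background step are not given in these sources. Of 22810 probe sets, 64 controls were set aside and no filter on signal was applied. Symbols came from the platform annotation, updated through RefSeq genes of TAIR10.1 (all 27 single-gene members matched). Tests used limma 3.58.1 (R 4.3.3) with 1 mean per group over all 15 arrays (10 residual and 3.09 prior degrees of freedom), 2-sided, with Benjamini-Hochberg adjustment over 22746 probe sets and a call at adjusted p under 0.05. The script was tested on simulated data. Contrasts used by the membership criteria were not tested for members. Members and lists were chosen with earlier results of these data known. Values by array are given for the 12 single-gene members and the 4 others with the largest wildtype response, and other members were named near a limit, for a small p or by role.

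Whether equal replicate numbers pair arrays was checked by the correlation of their deviations from the group means. For wildtype and uvr8-1 in white light it was 0.635, 0.658 and 0.484, and under UV-B 0.684, 0.527 and 0.453, so these arrays deviated together. The main fit did not use this pairing, and a replicate block fit is given as an alternative. For hy5-1 and uvr8-1 under UV-B it was 0.122, −0.0259 and 0.0168, so they share only a number. Promoter motifs, which had been planned, were not analysed here. Figures were drawn with matplotlib 3.10.9.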

Additional observations from a re-analysis of the deposited data

Results flagged for a closer look

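Outside the members, 6 measured genes of the 2 functional lists responded differently to UV-B in wildtype and uvr8-1, by the interaction term of limma. The difference of responses was −3.83 for UGT84A1, −3.42 for UGT78D2, −3.42 for AT3G52740, −3.34 for DFR, −3.16 for CHIL and −3.07 for AT1G06000, with adjusted p from limma between 0.000108 and 0.0206. Of these 6, UGT84A1, AT3G52740, DFR, CHIL and AT1G06000 met the same 3 criteria as the members and were set aside by name, so their difference is no independent result. The same term is large for the 63 members because the criteria select it, and it was not tested there.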

How the results depend on the processing

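The 25 members called higher in hy5-1 than in uvr8-1 numbered 24 to 26 in a fit of the compared groups, with an intensity trend, after quantile normalisation, without dim probe sets and in a replicate block fit (25). Counts for the 63 were 15 to 21 without 1 array of the groups compared and 0 with the 3' minus 5' index as a covariate, where the cause was not tested. Calls lower numbered 0 in these fits, except for 1 without wildtype UV-B replicate 2, an alternative added after seeing the data, where 22 of the 44 members then chosen were called higher. In white light 0 members were called in any fit, the replicate block included. Among recomputed values of named members in the first contrast, 33 lost their call and 3 uncalled ones changed sign. The other 216 kept their status, and these include values that the main fit had not called. In white light 32 uncalled values changed sign. The criteria gave 44 to 85 members without 1 array (44 without wildtype UV-B replicate 2, 78 and 85 without replicates 1 and 3), 70 with medians, 56 after quantile normalisation, 61 and 66 with a ratio of 0.3 and 0.5, 86 and 44 with a looser and a stricter hy5-1 limit, and 47 with a wildtype limit of 1.5. For hy5-1 against wildtype, the UVR8 signalling list had 1 lower call in a fit of the compared groups, 0 with the index as a covariate and 1 to 2 without 1 array. The protection list had 4, 0 and 3 to 7. The interaction gave 1 to 2 lower calls in the signalling list without 1 array. The block moved no count of calls by over 1.5 times. Members near background limit the size of their changes.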

Other observations

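The wildtype UV-B arrays ranked differently for the members and for the wider set of probe sets that met the wildtype criterion. Replicate 2 held the highest of the 3 values for 51 of the 63 members (81.0%) and for 34.6% of the 1656 probe sets, whereas replicate 3 held it for 1 member (1.59%) and for 56.2% of the 1656. The members' choice used these arrays. For the 44 members chosen without replicate 2, that array was the highest for 35 (79.5%), against 30.0% of all probe sets. Of the 85 chosen without replicate 3, replicate 3 was the highest for 1 (1.18%), against 32.3% of all. Of the 78 chosen without replicate 1, replicate 1 was the highest for 6 (7.69%), against 36.8% of all. A choice without an array selects high values on the other wildtype UV-B arrays. The shares over all probe sets are therefore no standard for these counts. In hy5-1, replicate 1 was the highest for 33 members (52.4%) and replicate 2 for 7 (11.1%). What set the wildtype arrays apart was not tested.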
